A study of Mus musculus with 18 samples.

Results

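The genes of STING, of the kinases TBK1 and IKKε, of the transcription factor IRF3 and of the nuclease TREX1 were followed in endothelial cells (ECs) of the mouse breast. They were chosen by name, as the rows Tmem173 (which encodes STING), Tbk1, Ikbke (which encodes IKKε), Irf3 and Trex1 of a table of 16248 genes. Of the 5 genes, 4 had a row and all 4 passed the filter on low values, while Trex1 had no row and its level was not analysed here.

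STING is a membrane protein of the endoplasmic reticulum that binds cyclic dinucleotides, such as the cGAMP made by the DNA sensor cGAS. Bound STING moves to the Golgi and recruits TBK1 and its relative IKKε, which phosphorylate STING and IRF3, and IRF3 then enters the nucleus and switches on type I interferon and other genes. TREX1 degrades cytosolic DNA and so limits the supply of ligand. In ECs the pathway is known for interferon and cytokine output, for recruitment of leucocytes and for vessel injury when it is strongly activated. Most of its regulation acts on proteins, by phosphorylation, transport and degradation, which messenger RNA levels do not report.

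The series held bulk RNA sequencing (RNA-seq) of sorted ECs in 6 groups of 3 libraries (18 in all), each from mice of the FVB strain and collected 3 hours after injection of phosphate-buffered saline (PBS) or of the STING agonist cGAMP. The normal ECs were those of the fat pad in wild type mice, MMTV-PyMT ECs from spontaneous breast tumours of mice with that genotype, in which a viral promoter drives the middle T oncogene in the mammary epithelium, and implanted ECs from tumours of wild type hosts. According to the study's methods the implanted tumours grew from briefly cultured tumour cells of MMTV-PyMT mice, so that the oncogene was in the tumour cells and not in the host's vessels. The animals were young adult females, and ECs were gated as live, CD45-negative and CD31-positive.

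Recovered reads per library ranged from 9184556 to 12200414, and reads carried no molecular identifiers, so read numbers cover counting error only. Values are FPKM, fragments per kilobase of summed exon length, scaled between libraries by factors that follow the median gene. All 14 markers of ECs were listed, with summed levels of 1018 to 2701 FPKM, and none of the 3 adipocyte markers was. No listed value was 0 in any library, so an unlisted marker may still have been present in some libraries. Markers of other cells were present too. Of 18 leucocyte markers 13 were listed, and their sum was 79.4 to 209 FPKM in every library but implanted cGAMP 2, where it was 604 FPKM. Ptprc, which encodes the CD45 used as the negative gate, stood at 9.73 FPKM in normal cGAMP 1 and 9.24 FPKM in implanted cGAMP 2, against 0.156 to 6.31 FPKM in the other 16 libraries. Epithelial markers (7 of 7) summed to 893 to 966 FPKM in MMTV-PyMT ECs under PBS, against 439 to 565 FPKM in normal and 393 to 566 FPKM in implanted ECs under PBS. Fibroblast markers (6 of 6) reached 254 to 609 FPKM in implanted ECs under cGAMP, against 234 to 271 FPKM under PBS. In bulk libraries, fewer cells of a type and less RNA per cell cannot be told apart.

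The 4 measured genes lay on different levels. Under PBS, Tmem173 was above 81.4 to 93.2% of the tested genes by its group mean, Tbk1 above 70.1 to 75.1%, Irf3 above 53.2 to 66.5% and Ikbke above 4.50 to 10.1%. Ikbke rested on 33 to 185 reads per library. At the mean read number of each group, counting alone gives a coefficient of variation of 8.28 to 16.0%, against 7.30 to 47.4% between the libraries of a group. The summed exons of its annotation measure 9018 bases, more than the 2741 to 3910 of the other 3 genes. If the transcripts made were shorter than those summed exons, its FPKM would understate it relative to the others.

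**Figure D1:**
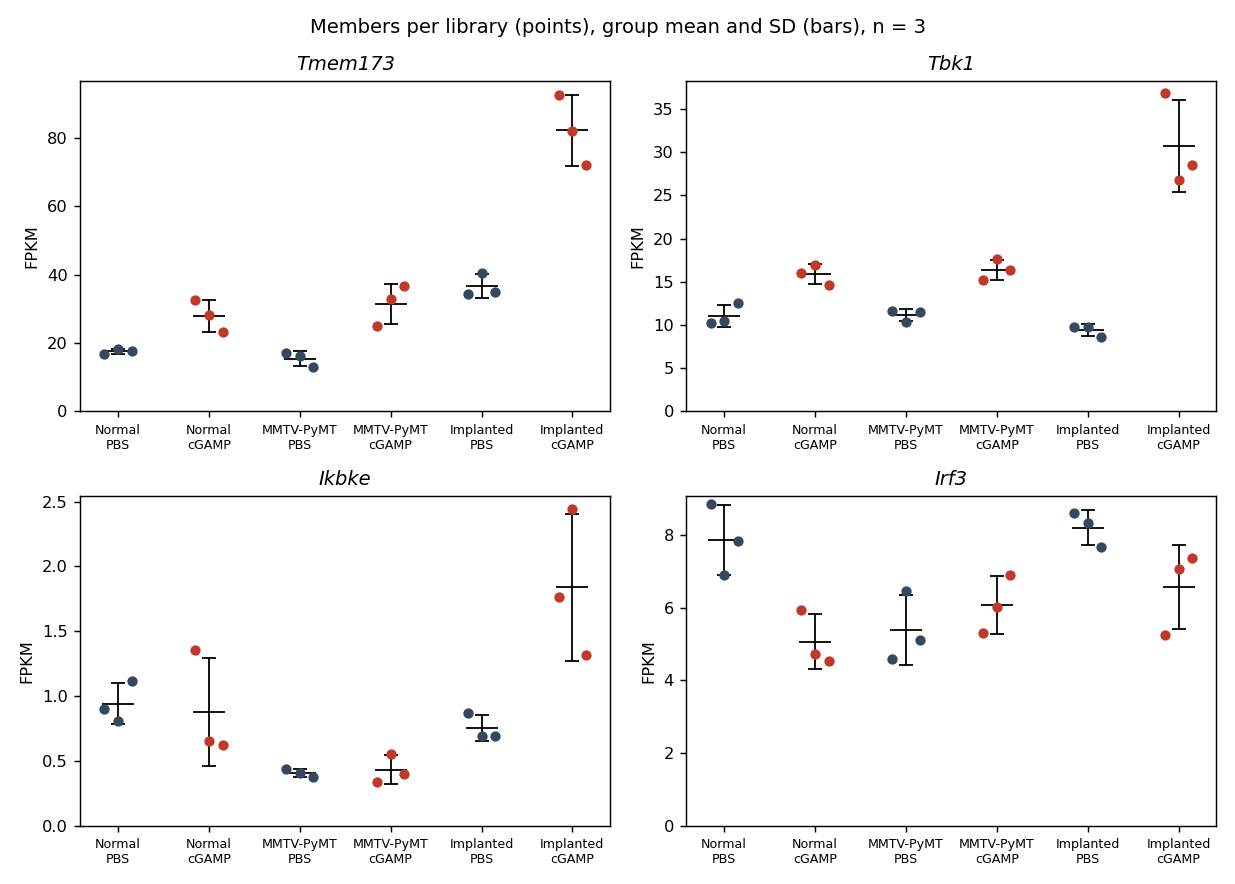
FPKM of Tmem173, Tbk1, Ikbke and Irf3 in each library (dark points PBS, red points cGAMP), with the group mean and SD as bars (n = 3 libraries per group). Tmem173 and Tbk1 stand higher under cGAMP in each tissue, Ikbke in implanted ECs, and Irf3 is lower in normal ECs.

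To see which of the genes answered the agonist, cGAMP was compared with PBS in each tissue (limma on log2(FPKM + 1), with Benjamini-Hochberg adjustment over 13983 genes, called at an adjusted p under 0.05). In normal ECs 3 of the 4 genes passed, Tmem173 and Tbk1 higher and Irf3 lower, where 31.9% of all tested genes passed in either direction. In MMTV-PyMT ECs 2 passed, Tmem173 and Tbk1, both higher, against 12% of all genes. In implanted ECs 3 passed, Tmem173, Tbk1 and Ikbke, all higher, against 39.1%. Ikbke met the filter (at least 1 FPKM in at least 3 libraries) only with the implanted cGAMP libraries counted. Its entry into the test was therefore not independent of that rise. Higher in all 3 tissues were 2 of the 4 genes and 4.51% of all genes tested. A pseudocount of 1 makes the log2 changes of low genes such as Ikbke smaller than their FPKM ratios. Scaling by total reads in place of the authors' scaling moved the median log2 change of all genes from −0.01 to −0.25 in implanted, from −0.04 to −0.14 in MMTV-PyMT and from −0.04 to −0.05 in normal ECs, and values under that scaling are to be read against this shift.

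**Figure D2:**
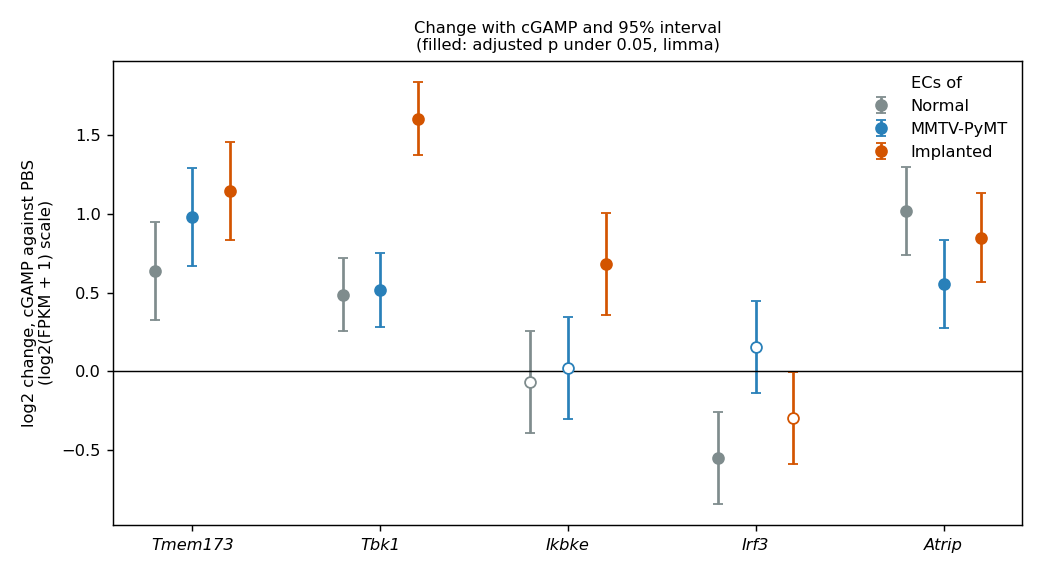
Change with cGAMP on the log2(FPKM + 1) scale for the 4 measured genes and Atrip, the gene that overlaps Trex1, in ECs of normal fat pad (grey), MMTV-PyMT tumours (blue) and implanted tumours (orange). Points are limma estimates with 95% intervals and filled points have an adjusted p under 0.05. Tbk1 in implanted ECs (1.60) is the highest point.

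Tmem173 (ENSMUSG00000024349.10, chr18:35733679-35740554, minus strand, protein-coding, GRCm38) encodes the receptor itself. In normal ECs it was at 16.8, 18.1 and 17.6 FPKM under PBS and at 32.5, 28.2 and 23.2 FPKM under cGAMP. In MMTV-PyMT ECs the PBS libraries held 17.1, 16.0 and 12.9 FPKM and the cGAMP libraries 24.9, 32.7 and 36.6 FPKM. In implanted ECs the values were 34.2, 40.6 and 34.8 FPKM under PBS and 92.7, 82.1 and 72.1 FPKM under cGAMP. Every cGAMP library stood above every PBS library of its tissue, which held for 20.9% of all genes in the normal, 14.8% in the MMTV-PyMT and 22.4% in the implanted comparison. In the order of the 6 group means, implanted ECs under cGAMP came first and did not overlap the next group. Implanted ECs under PBS, MMTV-PyMT ECs under cGAMP and normal ECs under cGAMP followed, each overlapping the next, while all 3 implanted PBS libraries lay above the normal cGAMP libraries. Normal and MMTV-PyMT ECs under PBS came last and overlapped.

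Under PBS, Tmem173 in implanted ECs was 2.09-fold as high as in normal ECs (log2 difference 1.02, SE 0.15, adjusted p = 3.15e-05, limma) and 2.38-fold as high as in MMTV-PyMT ECs (1.20, SE 0.15, adjusted p = 1.08e-05), in 3 of 3 libraries each time. In these comparisons of tissues under PBS 48.7% and 45.5% of all genes passed in either direction, and 1 and 2 of the 4 members, while all implanted libraries lay above all others for 31.4% and 27.5% of genes. Marker sums of other cells differed between these tissues too. Under PBS the fibroblast markers summed to 234 to 271 FPKM in implanted, 75.3 to 87.7 FPKM in normal and 111 to 178 FPKM in MMTV-PyMT ECs, the endothelial markers to 1629 to 2074, 1539 to 1744 and 1018 to 1249 FPKM, and the mural markers (6 of 6) to 185 to 226, 884 to 996 and 200.5 to 279 FPKM. Their part in the Tmem173 difference was not tested. Normal and MMTV-PyMT ECs differed by −0.19 (95% interval −0.50 to 0.12, adjusted p = 0.293, limma), which did not pass. The change with cGAMP was 1.60-fold in normal, 2.04-fold in MMTV-PyMT and 2.25-fold in implanted ECs, and no pair of these changes differed by the test. The implanted change minus the normal one was 0.51 (95% interval 0.07 to 0.95, adjusted p = 0.0984), the MMTV-PyMT change minus the normal one 0.34 (−0.10 to 0.78, adjusted p = 0.337) and the implanted minus the MMTV-PyMT one 0.17 (−0.27 to 0.61, adjusted p = 0.674, limma). The last of these was −0.016 when total reads set the scale and −0.20 after quantile normalization, so its sign depended on the scaling.

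Tbk1 (ENSMUSG00000020115.3, chr10:121546455-121586787, minus strand, protein-coding) encodes the kinase that STING recruits. Normal ECs held 10.2, 10.5 and 12.5 FPKM under PBS and 16.0, 16.9 and 14.7 FPKM under cGAMP. MMTV-PyMT ECs held 11.6, 10.4 and 11.4 FPKM and then 15.2, 17.6 and 16.4 FPKM. In implanted ECs the PBS libraries were at 9.75, 9.79 and 8.57 FPKM and the cGAMP libraries at 36.9, 26.8 and 28.6 FPKM. No cGAMP library overlapped a PBS library of its tissue. All cGAMP libraries lay above for 20.9%, 14.8% and 22.4% of all genes in these 3 tissues. The rise was 1.43-fold in normal ECs (log2 change 0.49, SE 0.11, adjusted p = 0.00329), 1.47-fold in MMTV-PyMT ECs (0.52, SE 0.11, adjusted p = 0.00556) and 3.28-fold in implanted ECs (1.60, SE 0.11, adjusted p = 1.23e-08, limma).

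Tbk1 differed between tissues in its response, and Ikbke and Irf3 each passed in 1 such comparison, given below. Its change in implanted ECs exceeded that in normal ECs by 1.12 (SE 0.16, adjusted p = 0.000156) and that in MMTV-PyMT ECs by 1.09 (SE 0.16, adjusted p = 0.00041, limma). Of all genes 12.5% and 7.34% passed higher in these differences. Both calls held in all 18 fits that left out 1 library and in each of the 9 other settings. The changes of normal and MMTV-PyMT ECs differed by 0.03 (95% interval −0.30 to 0.36, adjusted p = 0.933). Before the agonist the order was the other way. Under PBS the implanted libraries lay below all normal and all MMTV-PyMT libraries, as for 30.2% and 30.9% of all genes, with differences of −0.21 (adjusted p = 0.121) and −0.23 (adjusted p = 0.1, limma) that did not pass, and that passed when scaled by total reads (−0.38, adjusted p = 0.0014, and −0.37, adjusted p = 0.00185), where the medians of all genes were −0.13 and −0.13. The difference from normal ECs also passed with quantile normalization (−0.27, adjusted p = 0.0181), and that from MMTV-PyMT ECs without implanted cGAMP 1 (−0.23, adjusted p = 0.0427, limma). Of the 6 group means, that of implanted ECs under PBS was the lowest and that of implanted ECs under cGAMP the highest.

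Ikbke (ENSMUSG00000042349.13, chr1:131254343-131279606, minus strand, protein-coding) encodes IKKε, the relative of TBK1 that can also phosphorylate IRF3. In normal ECs it was at 0.902, 0.804 and 1.12 FPKM under PBS and 1.36, 0.651 and 0.622 FPKM under cGAMP. In MMTV-PyMT ECs it was at 0.434, 0.409 and 0.375 FPKM and then 0.338, 0.554 and 0.400 FPKM. The groups overlapped in both tissues, and the log2 changes were −0.07 (95% interval −0.39 to 0.26, adjusted p = 0.776) and 0.02 (−0.30 to 0.35, adjusted p = 0.947, limma). Implanted ECs went from 0.866, 0.689 and 0.696 FPKM to 1.76, 2.44 and 1.31 FPKM without overlap, as for 22.4% of all genes. The rise was 2.45-fold in FPKM and 0.68 on the log2(FPKM + 1) scale (SE 0.15, adjusted p = 0.00226, limma). With a pseudocount of 0.1 the rise was 1.15 (adjusted p = 0.00464). Its 3 highest libraries of all 18 were 2 of these implanted cGAMP libraries and normal cGAMP 1.

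Both libraries that stood apart by Ptprc were also the ones in which Ikbke was highest within their group. In 4 of the 6 groups the library with the most Ikbke was the one with the most Ptprc. Without normal cGAMP 1 and implanted cGAMP 2 together, an alternative chosen after seeing the data, the implanted rise was 0.53 (adjusted p = 0.00256) and the normal change −0.24 (adjusted p = 0.135, limma). In implanted ECs under cGAMP the other 2 libraries held 1.80 and 1.70 FPKM of Ptprc, against 0.37 to 1.09 FPKM under PBS. The part of leucocyte RNA in the Ikbke values was not tested. The rise in implanted ECs exceeded the change in normal ECs by 0.75 (SE 0.22, adjusted p = 0.0238, limma), a call that was lost in 5 of 18 fits without 1 library (0.60, adjusted p = 0.0525, without implanted cGAMP 2, and likewise without normal PBS 3, normal cGAMP 2, normal cGAMP 3 or implanted PBS 3). It was also lost with scaling by total reads (0.55, adjusted p = 0.067) and when only the tissues compared were fitted (0.75, adjusted p = 0.0601). The rise in implanted ECs exceeded the change in MMTV-PyMT ECs by 0.66 (adjusted p = 0.0629, limma), which did not pass. That difference passed with quantile normalization (0.79, adjusted p = 0.0316) and without both high Ptprc libraries (0.51, adjusted p = 0.0494). It also passed without normal cGAMP 1 (0.66, adjusted p = 0.0299) or without implanted cGAMP 3 (0.80, adjusted p = 0.0231, limma).

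Tissue differences of Ikbke were present under PBS. It was lower in MMTV-PyMT than in normal ECs by 0.46 on the log2 scale (log2 difference −0.46, SE 0.15, adjusted p = 0.0172, limma), with all 3 libraries below, as for 32.3% of all genes, in a comparison in which 56.5% of all genes and 2 of the 4 members passed. Without normal PBS 3, the library with the most Ptprc among the normal PBS libraries (6.31 FPKM), the difference was −0.40 (adjusted p = 0.068), and with quantile normalization −0.26 (adjusted p = 0.178). In implanted ECs under PBS Ikbke was 1.85-fold as high as in MMTV-PyMT ECs, with all 3 libraries above, as for 27.5% of all genes. The log2(FPKM + 1) difference of 0.31 (SE 0.15, adjusted p = 0.105, limma) did not pass. It passed with a pseudocount of 0.1 (0.74, adjusted p = 0.044), with voom on recovered reads (0.87, adjusted p = 0.0467) and without both high Ptprc libraries (0.31, adjusted p = 0.024, limma). Ptprc was at 0.262 to 0.333 FPKM in MMTV-PyMT ECs and at 1.98 to 6.31 FPKM in normal ECs under PBS.

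The balance of the kinases was asked with a ratio that does not depend on the scaling of a library, the log2 of Ikbke over Tbk1 FPKM. Ikbke made up 7.82 ± 0.591% of the summed FPKM of both genes in normal ECs under PBS and 5.20 ± 2.28% under cGAMP (SD, n = 3). The share went from 3.53 ± 0.318% to 2.54 ± 0.462% in MMTV-PyMT ECs and from 7.42 ± 0.801% to 5.77 ± 2.23% in implanted ECs (SD, n = 3). All 3 cGAMP libraries lay below all PBS libraries in MMTV-PyMT ECs. In the other tissues 2 of 3 did, and the exceptions were normal cGAMP 1 and implanted cGAMP 2. The mean log2 ratio over the tissues fell by 0.55 (exact permutation test within tissues, 2-sided, p = 0.0075 over 8000 permutations, smallest possible p = 0.00025), with changes of −0.71 for normal, −0.50 for MMTV-PyMT and −0.45 for implanted ECs. This test reuses the Tbk1 and Ikbke values given above, so the fall is not independent of the rise of Tbk1. In implanted ECs the ratio fell although Ikbke itself rose. Within 1 tissue, 3 against 3 libraries cannot pass 0.05 and no p is given. Without both high Ptprc libraries, a choice made after seeing the data, the mean was −0.78 (exact p = 0.0005). These libraries are the exceptions just named. Leaving them out removed all overlap of cGAMP and PBS libraries, so this p was fixed by the choice and adds no support.

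**Figure D3:**
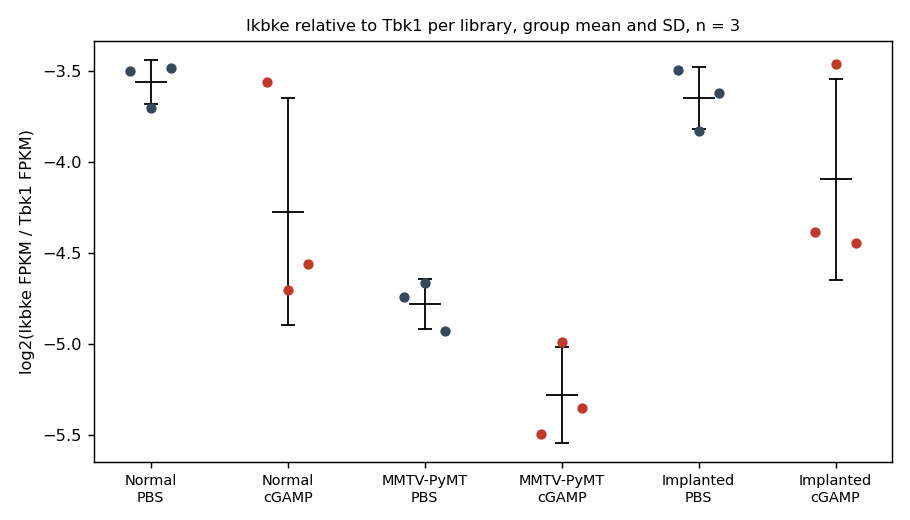
Log2 of Ikbke FPKM over Tbk1 FPKM in each library (dark points PBS, red points cGAMP), with the group mean and SD (n = 3). The group means fall with cGAMP in each tissue, and normal cGAMP 1 and implanted cGAMP 2 remain at about the PBS level, at −3.56 and −3.46.

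The stretches before the starts of both kinase genes are shown side by side as a description. Whether these bases bear on the level or the response of either gene was not tested. RefSeq windows of 250 bases before a start (GRCm38.p6) were at hand for 4 of the 5 genes. Each is written 5′ to 3′ in the direction of the gene, with the dinucleotide CG in capitals, and Ikbke stops where its GENCODE gene begins. Tbk1 is chr10:121586795-121587044 and Ikbke chr1:131279607-131279813, both on the minus strand.
Tbk1: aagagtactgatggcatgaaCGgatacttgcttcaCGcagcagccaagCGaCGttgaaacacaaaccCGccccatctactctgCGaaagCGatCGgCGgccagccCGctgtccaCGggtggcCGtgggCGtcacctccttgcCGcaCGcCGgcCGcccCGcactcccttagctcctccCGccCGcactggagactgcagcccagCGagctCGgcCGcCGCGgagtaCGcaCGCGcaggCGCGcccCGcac
Ikbke: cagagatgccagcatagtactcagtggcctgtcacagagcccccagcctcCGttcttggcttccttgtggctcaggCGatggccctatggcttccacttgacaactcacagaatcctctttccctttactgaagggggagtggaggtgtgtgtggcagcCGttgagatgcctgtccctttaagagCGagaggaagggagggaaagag
The whole Tbk1 window held 31 CG dinucleotides and 68.4% G and C, more CG than 94.8% of 32851 windows. The Ikbke window of 250 bases held 4 CG dinucleotides and 54.4% G and C, more CG than 37.8% of windows, and the median window held 6. Cores of 3 motifs were searched on both strands. GAAANNGAAA (interferon-stimulated response element) occurred in 2.98% of all windows, TTCNNNGAA (gamma-activated site) in 7.02% and GGGANNTTCC (an NF-κB site) in 1.21%. None of the 3 was found in the windows of Tbk1, Ikbke, Irf3 or Trex1, which says only that these letters are not in those windows.

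Irf3 (ENSMUSG00000003184.15, chr7:44997648-45002848, plus strand, protein-coding) encodes the transcription factor at the end of the route. Normal ECs held 8.86, 6.91 and 7.83 FPKM under PBS and 5.93, 4.73 and 4.54 FPKM under cGAMP, all cGAMP libraries below all PBS libraries, as for 28% of all genes. Implanted ECs held 8.61, 8.33 and 7.67 FPKM and then 5.25, 7.08 and 7.38 FPKM, again without overlap, as for 22.8% of all genes. In MMTV-PyMT ECs the groups overlapped, with 4.60, 6.46 and 5.10 FPKM under PBS and 5.31, 6.01 and 6.90 FPKM under cGAMP. The fall in normal ECs was to 0.644 times the PBS mean (log2 change −0.55, SE 0.14, adjusted p = 0.00663, limma) and passed in every fit and setting tried. The change was −0.29 in implanted ECs (95% interval −0.59 to −0.001, adjusted p = 0.104), which passed with scaling by total reads (−0.56, adjusted p = 0.00502), and 0.15 in MMTV-PyMT ECs (−0.14 to 0.45, adjusted p = 0.514, limma).

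Under PBS, Irf3 was lower in MMTV-PyMT than in normal ECs (log2 difference −0.48, SE 0.14, adjusted p = 0.00757) and higher in implanted than in MMTV-PyMT ECs (0.54, SE 0.14, adjusted p = 0.00493 by limma), and all 3 libraries were apart each time. That separation held for 32.3% and 27.5% of all genes, and 56.5% and 45.5% passed in either direction. Normal and implanted ECs differed by 0.06 (95% interval −0.23 to 0.35). The MMTV-PyMT libraries of this comparison were those with the highest epithelial marker sums, and the part of epithelial RNA was not tested. The MMTV-PyMT change with cGAMP exceeded the normal one by 0.70 (SE 0.20, adjusted p = 0.0374, limma), where 8.37% of all genes passed in either direction and 5.48% higher, and 1 of the 4 members. This call was lost in 8 of 18 fits without 1 library, with adjusted p from 0.0703 to 0.101 there, with scaling by total reads (0.60, adjusted p = 0.0816) and with the replicate number as a block (0.70, adjusted p = 0.0581). Those libraries were normal PBS 1 and 3, normal cGAMP 2 and 3, MMTV-PyMT PBS 1 and 3 and MMTV-PyMT cGAMP 2 and 3. In the comparisons of the implanted response with the normal and the MMTV-PyMT response, 18.6% and 11.1% of all genes passed, against 2 and 1 of the 4 members.

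Irf3 and Bcl2l12, which lies on the opposite strand, share 88 exon bases, 2.56% of the exons of Irf3, and whether the counting used the strand is not given in the sources used here. Bcl2l12, which encodes a relative of the BCL2 proteins, had log2 changes of −0.48 in normal (adjusted p = 0.0287), −0.05 in MMTV-PyMT (adjusted p = 0.883) and −0.26 in implanted ECs (adjusted p = 0.199, limma). Of the other listed neighbours within 5 kb of Tmem173, Tbk1 or Irf3, 1 passed in any tissue. Xpot beside Tbk1, which encodes a transfer RNA exporter, and Gm15545 beside Irf3 passed in no tissue, and 1700066B19Rik beside Tmem173 was under the filter. Scaf1 beside Irf3 fell by 0.26 in implanted ECs (adjusted p = 0.00426, limma).

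Trex1 (ENSMUSG00000049734.9, chr9:109057933-109059734, minus strand, protein-coding) encodes the main exonuclease of cytosolic DNA. All 1147 bases of its annotated exons (100%) lie inside exons of Atrip on the same strand (ENSMUSG00000025646.9, chr9:109057933-109074124), which encodes the partner of the checkpoint kinase ATR. Of 141 protein-coding genes that lie wholly in same-strand exons of other genes, the table listed 10 (7.09%), against 12164 of 20189 genes (60.3%) with no such overlap. Strand information cannot separate genes on 1 strand, and how reads in shared exons were counted is not given in the sources used here.

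**Figure D4:**
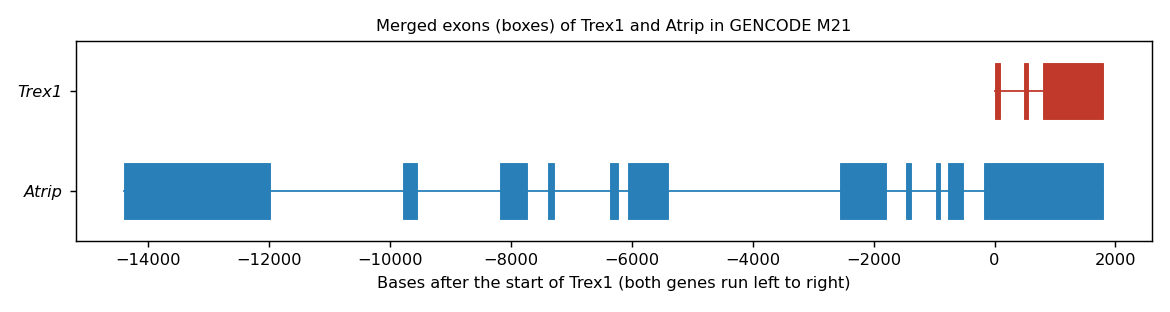
Merged exons (boxes) of Trex1 and Atrip in GENCODE M21, by distance in bases from the start of Trex1, with both genes running left to right. The 3 boxes of Trex1 lie inside the last box of Atrip.

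Atrip was higher under cGAMP in each tissue. It went from 2.83, 2.92 and 2.36 FPKM to 5.58, 5.83 and 8.31 FPKM in normal ECs, from 2.36, 2.35 and 2.29 FPKM to 3.46, 4.63 and 3.66 FPKM in MMTV-PyMT ECs and from 2.18, 2.29 and 2.49 FPKM to 5.03, 4.24 and 5.77 FPKM in implanted ECs. No groups overlapped. The log2 changes were 1.02 (SE 0.13, adjusted p = 3.84e-05), 0.55 (SE 0.13, adjusted p = 0.0118) and 0.85 (SE 0.13, adjusted p = 9.38e-05, limma), and the second missed the threshold without MMTV-PyMT cGAMP 2 (0.45, adjusted p = 0.0772). If reads in the shared exons were counted for Atrip, those of Trex1 cannot be told apart from them. If such reads were set aside, the values rest on the other exons of Atrip. Which of these holds was not tested, and the values give no level of Trex1 in either case. Shisa5, a gene of the endoplasmic reticulum that lies on the opposite strand beyond the end of Trex1 and shares no exon base with it, had log2 changes of 0.28 (adjusted p = 0.102), 0.55 (adjusted p = 0.00977) and 1.16 (adjusted p = 2.45e-06, limma).

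Other genes of the pathway were taken from 5 lists of 80 genes besides the members, of which 76 were listed and 74 tested. In normal ECs 22 passed higher and 10 lower, in MMTV-PyMT ECs 14 and 3 and in implanted ECs 26 and 14. Over all genes tested 13.7% and 18.2%, 7.42% and 4.57%, and 20.3% and 18.8% passed higher and lower in these tissues. The counts of single lists below are to be read against these same shares. Genes named there were picked for the largest changes of their list, so they do not stand for the list as a whole. The median log2 changes of the 74 genes were 0.04, −0.05 and 0.01, against −0.04, −0.04 and −0.01 for all genes tested. The lists differed among themselves, with medians of 0.32 in normal and 0.32 in implanted ECs for the partners of TBK1 and IKKε and of −0.01 and −0.08 for STING trafficking, and no list was tested as a whole. The numbers that fell depended on the scaling, with 13 in MMTV-PyMT and 35 in implanted ECs when libraries were scaled by total reads. Under that scaling the medians of all genes were −0.14 and −0.25 in these tissues. The share of all genes that passed lower there is not given, so these 2 numbers do not show a fall particular to the pathway.

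**Figure D5:**
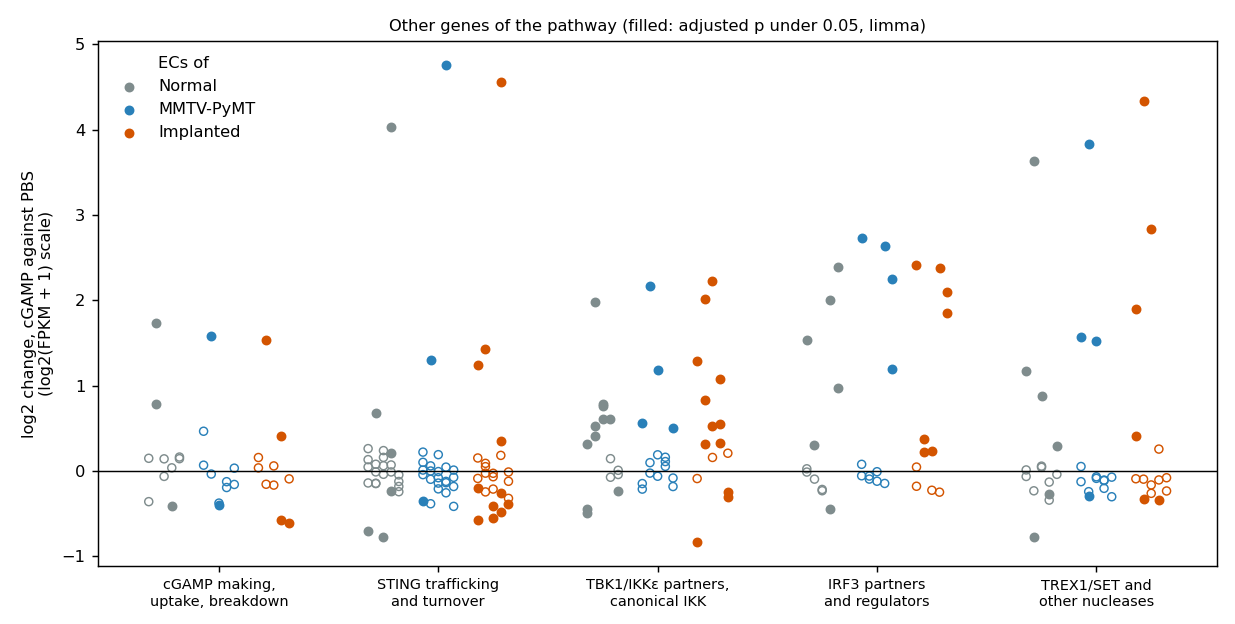
Change with cGAMP on the log2(FPKM + 1) scale of the 74 other pathway genes in 5 lists, by tissue (grey normal, blue MMTV-PyMT, orange implanted). Filled points have an adjusted p under 0.05 and open points do not. Most points lie near 0, and Usp18 (4.03 to 4.75) and Ifih1 (3.63 to 4.34) are the highest of their lists.

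Of 10 tested genes that make, carry or break down cGAMP, 2 rose and 1 fell in normal, 1 rose and 1 fell in MMTV-PyMT and 2 rose and 2 fell in implanted ECs. Cgas, the enzyme that makes cGAMP, rose in each tissue, by 1.73, 1.59 and 1.54 in the order normal, MMTV-PyMT and implanted (adjusted p from 7.3e-08 to 1.35e-07, limma). P2rx7, an ATP-gated channel, fell by 0.42 in normal (adjusted p = 0.0189) and by 0.58 in implanted ECs (adjusted p = 0.0018), and was −0.13 in MMTV-PyMT ECs (adjusted p = 0.559, limma).

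Of 24 tested genes of STING trafficking, modification and turnover, 3 rose and 3 fell in normal, 2 rose and 1 fell in MMTV-PyMT and 4 rose and 7 fell in implanted ECs. Usp18, an interferon-induced protease that removes ISG15 from proteins, rose by 4.03, 4.75 and 4.56 (adjusted p from 6.14e-10 to 8.86e-09, limma). Trim56, a ubiquitin ligase reported to act on STING and cGAS, rose by 0.68, 1.30 and 1.43 (adjusted p from 3.95e-07 to 0.00127). Another ubiquitin ligase, Trim32, fell by 0.70, 0.35 and 0.57 (adjusted p from 6.87e-05 to 0.0277, limma). Rnf5, a membrane-bound ubiquitin ligase, fell by 0.78 in normal and 0.41 in implanted ECs and was −0.08 in MMTV-PyMT ECs (adjusted p = 0.747). Zdhhc7, a palmitoyltransferase, fell by 0.24 in normal (adjusted p = 0.0485) and 0.49 in implanted ECs, and was −0.26 in MMTV-PyMT ECs (adjusted p = 0.0664, limma).

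Of 15 tested partners of TBK1 and IKKε and subunits of the canonical IKK complex, 8 rose and 3 fell in normal, 4 rose and none fell in MMTV-PyMT and 9 rose and 3 fell in implanted ECs. Azi2, an adaptor of TBK1 and IKKε, rose by 0.32, 0.56 and 1.29 (adjusted p from 1.89e-09 to 0.00479, limma). Tank, another adaptor of both kinases, rose by 0.61 in normal and 1.08 in implanted ECs and was 0.11 in MMTV-PyMT ECs (adjusted p = 0.566). Tnfaip3 (A20), a ubiquitin-editing inhibitor of NF-κB, rose by 1.98, 2.17 and 2.01, and its binding partner Tnip1 by 0.78, 1.19 and 2.22 (adjusted p from 1.53e-07 to 0.0056, limma). Mavs, the adaptor of cytosolic RNA sensors, fell by 0.50 in normal and 0.83 in implanted ECs and was −0.15 in MMTV-PyMT ECs (adjusted p = 0.42).

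Of 11 tested partners and regulators of IRF3, 5 rose and 1 fell in normal, 4 rose and none fell in MMTV-PyMT and 7 rose and none fell in implanted ECs. Irf7, the interferon-induced relative of IRF3, rose by 2.39, 2.25 and 2.09, while Irf3 itself passed higher in no tissue. The ubiquitin ligases Trim21 and Trim26 rose by 2.01, 2.63 and 2.37 and by 0.97, 1.19 and 1.85, and Ube2l6, which conjugates ISG15, rose by 1.53, 2.73 and 2.41 (adjusted p from 2.8e-10 to 5.6e-05 for these 3 genes, limma). Ppp2ca, a catalytic subunit of protein phosphatase 2A, rose by 0.30 in normal and 0.22 in implanted ECs and was −0.06 in MMTV-PyMT ECs (adjusted p = 0.57).

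Of 14 tested genes of the SET complex and of other nucleases and nucleic acid enzymes, 4 rose and 2 fell in normal, 3 rose and 1 fell in MMTV-PyMT and 4 rose and 2 fell in implanted ECs. The 3 that rose in each tissue are known for other tasks than the degradation of cytosolic DNA. Ifih1, which encodes the RNA sensor MDA5, rose by 3.63, 3.83 and 4.34, and the RNA editing enzyme Adar by 1.18, 1.56 and 1.90 (adjusted p from 2.33e-12 to 4.69e-06, limma). Samhd1, which hydrolyses deoxynucleotides, rose by 0.88, 1.52 and 2.84 (adjusted p from 1.24e-09 to 0.000661). Anp32a, a subunit of the SET complex, fell by 0.77, 0.30 and 0.33 (adjusted p from 1.22e-05 to 0.0398, limma).

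The genes whose profile was most like that of each member were named by Pearson's correlation of log2(FPKM + 1) over the 18 libraries, which form 6 groups, so the values describe shared group patterns and carry no p. For Tmem173 they were Serpina3g (0.980), H2-K2 (0.976) and Serpina3f (0.976). These belong to families with near-identical copies whose reads the counting may split. For Tbk1 they were Xrn1 (0.991), Pi4k2a (0.984) and Usp25 (0.981). For Ikbke they were Taok3 (0.958), Ms4a6b (0.957) and Il2rb (0.956), and the products of the latter pair are known from leucocytes. The closest genes to Irf3 were less alike, with Twf2 at 0.901 and Pold1 at 0.868.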

How the data were processed

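Per the labels and the study's methods, libraries of sorted ECs were made with a directional kit, aligned to mm10 with STAR 2.7 and counted with HTSeq. The authors deposited 1 table of FPKM (16248 genes, 18 columns). The step from counts to FPKM is not given in the sources used here. Of the columns, 12 name tumour and treatment, and 6 name only the treatment and were taken as normal fat pad by elimination. Columns without a sample numbered 0. No value was 0. Whole reads were recovered for 99.99% of genes (within 0.01 read), for 97.06% with the summed exon length of GENCODE M21 (GRCm38).

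Genes with at least 1 FPKM in at least 3 libraries (13983) were tested on log2(FPKM + 1) with limma 3.58.1 in R 4.3.3 (1 mean per group over 18 libraries, eBayes with trend, 2-sided), with Benjamini-Hochberg adjustment, in 9 comparisons. No fold limit was used. The members and gene lists were chosen with earlier results of these data known. Of each list up to 5 genes were named, those with the largest mean change among genes that passed in at least 2 tissues in 1 direction. For each member the 3 genes most correlated with it over the 18 libraries were named, of which 1 is not reported here. In data simulated for cGAMP against PBS in implanted ECs on 13983 genes, the fit recovered 20.9% of 1.5-fold, 88.1% of 2-fold and 100% of 4-fold changes. The fit also called 14 genes that had not been changed. All genes were simulated with the same dispersion (0.02), so genes that vary more between libraries are not covered. Replicate pairs differed by more than sampling noise. The labels do not say whether libraries of 1 group came from separate animals. The study's legends give 3 mice per group, taken from 3 independent experiments. Whether the replicate numbers follow those experiments is not stated. Alternatives were another pseudocount (0.1), no filter, a mean of at least 5 FPKM, scaling by total reads, quantile normalization, voom on recovered reads, the replicate number as a block, only the tissues compared, and leaving out each library.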

Additional observations from a re-analysis of the deposited data

Results flagged for a closer look

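Tests of the difference in cGAMP effect between tissues passed for 3 genes (limma on log2(FPKM + 1) with Benjamini-Hochberg adjustment). The Tbk1 effect in implanted ECs exceeded that in normal ECs by 1.12 (adjusted p = 0.000156) and that in MMTV-PyMT ECs by 1.09 (adjusted p = 0.00041), with no overlap of cGAMP and PBS libraries in any tissue. The Ikbke effect in implanted ECs exceeded that in normal ECs by 0.75 (adjusted p = 0.0238), beside Ptprc at 1.70 to 9.24 FPKM in the implanted cGAMP libraries, and this call was lost in 5 of 18 fits without 1 library, with scaling by total reads (adjusted p = 0.067) and with only the tissues compared (adjusted p = 0.0601). Ikbke met the filter on low values only with the implanted cGAMP libraries counted, so its entry into this test was not independent of their high values. The Irf3 effect in MMTV-PyMT ECs exceeded that in normal ECs by 0.70 (adjusted p = 0.0374), from a fall in normal ECs (3 of 3 libraries lower) and overlapping groups in MMTV-PyMT ECs. It was lost in 8 of 18 fits without 1 library, with scaling by total reads (adjusted p = 0.0816) and with the replicate number as a block (adjusted p = 0.0581).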

How the results depend on the processing

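The cGAMP changes of Tmem173 and Tbk1 in each tissue, the rise of Ikbke in implanted ECs, the fall of Irf3 in normal ECs, both Tbk1 differences between tissues and both higher PBS levels of Tmem173 in implanted ECs kept their direction and call in all settings that tested them, and Ikbke was not tested at a mean of at least 5 FPKM. Its entry into the main fit depended on the implanted cGAMP libraries, where it was high. The counts that follow, also those without 1 library, stand without the share of all genes in the same setting. They show only how calls moved, not how these genes compare with all genes. The number of members that passed was 1 for the implanted against normal effect and 1 for MMTV-PyMT against normal under PBS at a mean of at least 5 FPKM, where Ikbke was left out. Scaling by total reads gave 0, 1 and 2 for the MMTV-PyMT against normal effect, the implanted against normal effect and implanted against normal under PBS, and 13 and 35 lower pathway genes in MMTV-PyMT and implanted ECs. Under that scaling Irf3 also passed in implanted ECs (−0.56, adjusted p = 0.00502), and Tbk1 in implanted against MMTV-PyMT under PBS (−0.37, adjusted p = 0.00185, limma). In the latter comparison Ikbke passed with a pseudocount of 0.1, with voom and without both high Ptprc libraries. Quantile normalization gave 2 for the implanted against MMTV-PyMT effect, 1 and 2 for MMTV-PyMT and implanted against normal under PBS, and 7 lower pathway genes in MMTV-PyMT ECs. Only the tissues compared gave 1 for the implanted against normal effect, and 1 and 8 lower pathway genes in MMTV-PyMT and implanted ECs. Without both high Ptprc libraries, chosen after seeing the data, 2 passed for the implanted against MMTV-PyMT effect, and 6 pathway genes were lower in normal ECs.

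The replicate block gave 0 for the MMTV-PyMT against normal effect and changed no other member's call. Deviations of same-numbered libraries of different groups correlated from −0.35 to 0.29 (median −0.013), with 8 of 45 over 0.1. Libraries of different numbers gave −0.33 to 0.37 (median 0.0097). With so few libraries per group, this cannot settle whether the numbers mark shared experiments.

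Without 1 library at a time, the members passed ranged from 0 to 1 (MMTV-PyMT against normal effect), 1 to 2 (implanted against normal effect), 1 to 2 (implanted against MMTV-PyMT effect), 1 to 2 (MMTV-PyMT against normal under PBS) and 2 to 3 (implanted against MMTV-PyMT under PBS), and lower pathway genes from 5 to 11 in normal, 0 to 4 in MMTV-PyMT and 9 to 15 in implanted ECs.

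Sign changes touched only values that had not passed. They were, with scaling by total reads, Ikbke in MMTV-PyMT ECs (−0.019), the MMTV-PyMT against normal effect of Tbk1 (−0.093), the implanted against MMTV-PyMT effect of Tmem173 (−0.016), and under PBS Tbk1 in MMTV-PyMT (−0.0085) and Irf3 in implanted against normal ECs (−0.11). With quantile normalization they were Ikbke in MMTV-PyMT ECs (−0.088), the same effects of Tbk1 (−0.021) and Tmem173 (−0.20), and Tbk1 in MMTV-PyMT against normal ECs under PBS (−0.074). Without 1 library the ranges were −0.24 to 0.026 for Ikbke in normal and −0.039 to 0.069 in MMTV-PyMT ECs, −0.053 to 0.081 for Tbk1 and −0.0042 to 0.26 for Ikbke in the MMTV-PyMT against normal effect, −0.035 to 0.10 for Tbk1 in MMTV-PyMT against normal, −0.020 to 0.14 for Irf3 in implanted against normal and −0.042 to 0.024 for Atrip in implanted against MMTV-PyMT ECs under PBS. The cause of these moves was not tested. Ikbke rested on 33 to 185 reads per library.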
